A study of Mus musculus with 6 samples.

Results

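Smooth muscle contractile genes of the intestinal wall were described in the duodenum of mice with and without the vitamin D receptor (VDR). The 33 genes are given by name. The rule uses no measured difference, but the genes were chosen with earlier results of these data known. Each gene was read from a probe set that the platform annotation pairs with that gene symbol alone and, where there were several, from the one whose mean signal was highest. All 33 had such a probe set, and all 33 lay above the filter on dim genes on each of the 6 arrays, among 22180 genes with a probe set and 13174 genes tested. The series compared 3 wild-type mice with 3 VDR-null mice, all 10 weeks old and of the C57Bl/6 background, with 1 whole-transcript array (Affymetrix Mouse Gene 2.0 ST) per duodenum sample. The labels do not give the sex, the diet, the layers of the wall that were taken or the targeted allele. Values are log2 signals, so a difference of 1 is a doubling of signal, and differences were taken between arrays for one gene. Levels of genes were otherwise only set against the median of all values or used to pick the highest mean.

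Smooth muscle contracts when calcium entering through voltage-gated channels or released from stores activates myosin light chain kinase, which phosphorylates the light chain of smooth muscle myosin and lets it pull on actin filaments. A phosphatase reverses this step, and nitric oxide relaxes the cell through cyclic GMP. Actin filaments are anchored in dense bodies and at the membrane, and desmin filaments connect these anchors. Many genes of the set are known targets of serum response factor (SRF) and its muscle coactivator myocardin, which act through a promoter element called the CArG box. In the duodenum smooth muscle forms the outer muscle coats and the muscularis mucosae, and it also surrounds blood vessels.

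The median signal of all probe sets lay between 5.15 and 5.19 on the 6 arrays, and no pair of arrays held identical values. Vdr, the gene targeted in the VDR-null mice, differed by -0.03 ± 0.12 (SE) between the genotypes; the position of its probes relative to the targeted part is unknown here, and the reading therefore does not check the labels. Whether the samples held smooth muscle was checked on its defining markers, which are genes of the set. These markers do not check that the organ was the duodenum. Myh11, Actg2, Acta2, Cnn1, Des and Tagln read between 9.18 and 12.29 on the 6 arrays, where the median of all values was 5.17. Genes of striated muscle were divided. Of 12 listed for skeletal muscle 7 lay below that median on every array, Myh4, Myh1 and Mylpf among them, while Ckm (6.64 to 7.11), Acta1, Tnnt3, Tnni2 and Tnnc2 lay above it on every array. Of 7 listed for the heart Myh6 and Actc1 lay below it on every array, and Tnnt2 (7.66 to 8.28), Myl7 and Tnni3 above it on every array.

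As a group the smooth muscle genes were lower in VDR-null duodenum, but none of them passed the test. The log2 difference, VDR-null minus wild-type, was negative in 31 of 33 genes, with a median of -0.31, which is 1.24-fold. Over all genes tested the median was -0.03, 56% were lower and 44% higher. limma, adjusted by Benjamini-Hochberg over all genes tested, placed 0 of 33 genes past an adjusted p of 0.05, with adjusted p-values from 0.683 to 0.946, and it called 0% of the 13174 genes, with 689 (5.23%) at an unadjusted p under 0.05. At an unadjusted p under 0.05 in limma 13 of 33 genes were lower and 0 higher, against 3.03% of all genes tested lower and 2.2% higher. On 10 of 33 genes every VDR-null array lay below every wild-type array, against 6.22% of all genes tested, and on 0 genes every VDR-null array lay above, against 4.87%. The 33 genes vary together from array to array, so these counts are not counts of independent observations. In whole tissue, a smaller share of muscle cells in the sample and less RNA per cell cannot be told apart.

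**Figure D1:**
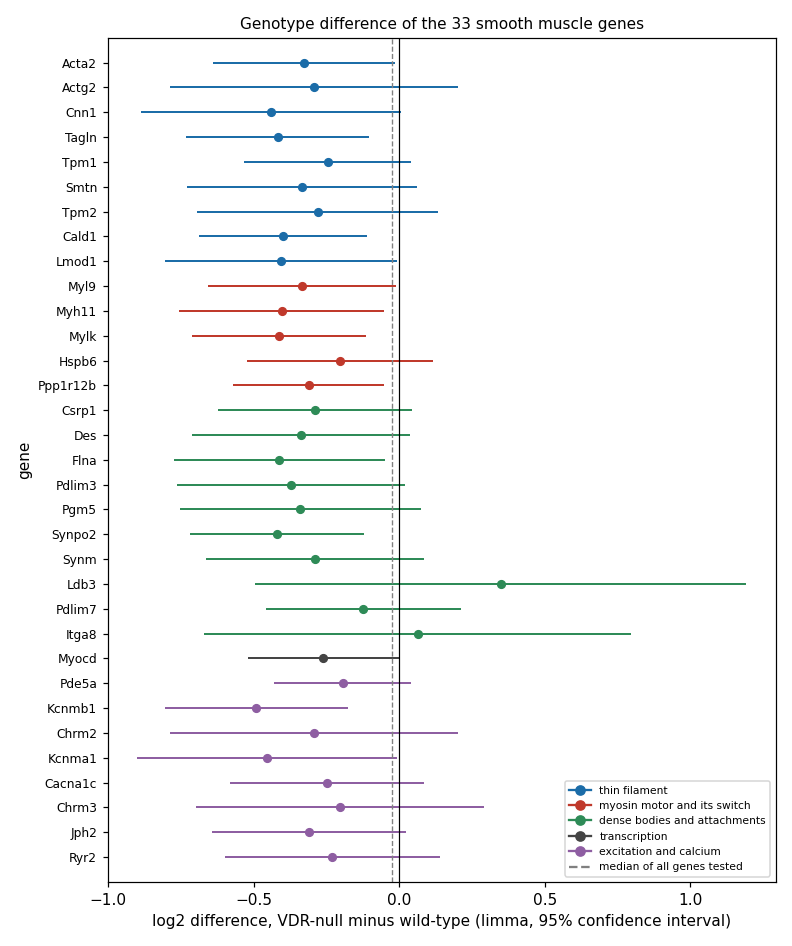
Log2 difference between VDR-null and wild-type duodenum (horizontal axis) for the 33 smooth muscle genes (vertical axis), with the 95% confidence interval from limma; colours give the gene's role and the dashed line the median of all genes tested. Of the 33 points 31 lie left of 0, and Ldb3 and Itga8 lie right of it with the widest intervals.

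The thin filament genes, those of actin and the proteins that bind along it, were all lower in VDR-null duodenum, 9 of 9, with a median of -0.33. Acta2 encodes the smooth muscle alpha-actin. It lies at chr19:34240336-34255585 (GRCm38.p6), and 2 CArG-like elements stand before the start that the RefSeq promoter table uses, in capitals here and shown because this element is where SRF is known to act on the gene (minus strand, chr19:34255383-34255503, inside the widest RefSeq span of the gene).
Acta2: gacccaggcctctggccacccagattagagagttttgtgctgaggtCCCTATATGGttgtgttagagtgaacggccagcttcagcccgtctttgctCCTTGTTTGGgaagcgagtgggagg

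Acta2 gave signals of 12.14, 11.83 and 12.29 on the wild-type arrays, in replicate order here and below, against 11.70, 11.80 and 11.78 on the VDR-null arrays. Wild-type replicates 1 and 3 were well above the VDR-null arrays and wild-type replicate 2 just above them, so the groups did not overlap. The difference was -0.33 ± 0.13 (SE), with a 95% interval from -0.64 to -0.02 and an adjusted p of 0.683 in limma. Cnn1 encodes calponin, an actin-binding inhibitor of the myosin ATPase, and had the largest difference of the thin filament genes. It gave 10.52, 9.91 and 10.58 (wild-type) against 9.76, 10.00 and 9.92 (VDR-null). Here wild-type replicate 2 lay among the VDR-null arrays, and the difference was -0.44 ± 0.19 (SE). Tagln, which encodes the actin cross-linking protein transgelin (SM22), gave 9.72, 9.38 and 9.83 (wild-type) against 9.24, 9.25 and 9.18 (VDR-null). Its groups did not overlap, with a difference of -0.42 ± 0.13 (SE).

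Actg2, the gamma-actin of visceral smooth muscle, gave 10.74, 10.07 and 10.88 (wild-type) against 10.24, 10.32 and 10.24 (VDR-null), so that wild-type replicate 2 was the lowest of the 6 arrays. Its difference was -0.29 ± 0.21 (SE). The remaining thin filament genes had differences between -0.41 and -0.24. They were Cald1 (caldesmon, which holds back the actin-myosin interaction) at -0.40, Lmod1 (leiomodin, which nucleates actin filaments) at -0.41, Smtn (smoothelin) at -0.33, and the tropomyosins Tpm2 at -0.28 and Tpm1 at -0.24, whose products lie along the actin groove. The groups did not overlap in Cald1 and Lmod1 and overlapped in Smtn, Tpm1 and Tpm2.

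**Figure D2:**
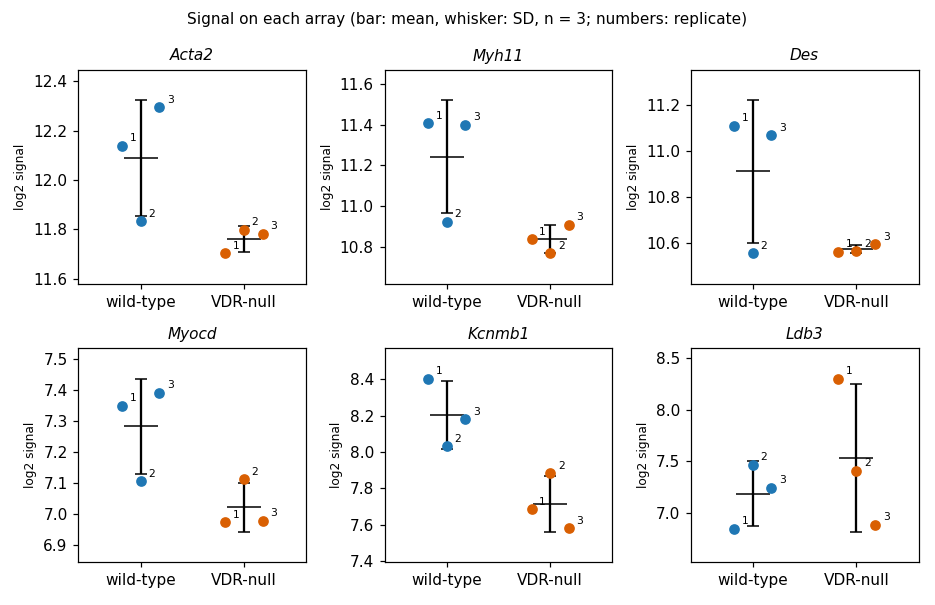
Log2 signal on each array (vertical axes, not starting at 0) for 6 genes in wild-type and VDR-null duodenum; points are single arrays with their replicate number, horizontal bars the mean and whiskers the SD of 3 arrays. Wild-type replicates 1 and 3 stand above all VDR-null arrays in Acta2, Myh11, Des, Myocd and Kcnmb1. In these genes wild-type replicate 2 lies close to the VDR-null arrays, except in Kcnmb1, where it lies between them and wild-type replicate 3. Ldb3 shows another order.

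The myosin motor and the enzymes that switch it were also lower throughout, 5 of 5 genes, with a median of -0.33. Myl9 encodes the regulatory light chain whose phosphorylation starts contraction. Its promoter window, on the plus strand, holds an exact CArG box and a CArG-like element, in capitals, at chr2:156775284-156775404 (GRCm38.p6), just before the gene's RefSeq span at chr2:156775408-156781657.
Myl9: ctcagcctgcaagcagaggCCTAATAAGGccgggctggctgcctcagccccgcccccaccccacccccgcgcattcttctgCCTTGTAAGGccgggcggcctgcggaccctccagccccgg

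Myl9 gave 11.43, 11.06 and 11.51 (wild-type) against 10.93, 11.01 and 11.06 (VDR-null). Wild-type replicate 2 lay just below the highest VDR-null array, and the difference was -0.33 ± 0.13 (SE). Myh11, the smooth muscle myosin heavy chain, gave 11.41, 10.93 and 11.40 (wild-type) against 10.84, 10.77 and 10.91 (VDR-null). Its groups were separated by a narrow gap between wild-type replicate 2 and VDR-null replicate 3, with a difference of -0.40 ± 0.15 (SE; 95% confidence interval -0.75 to -0.06). Mylk, which encodes myosin light chain kinase, gave 8.96, 8.67 and 9.07 (wild-type) against 8.47, 8.42 and 8.58 (VDR-null). Its groups did not overlap, with a difference of -0.41 ± 0.12 (SE), the largest of the motor genes. Ppp1r12b, a targeting subunit of the opposing myosin phosphatase, differed by -0.31 ± 0.11 (SE), again without overlap. Hspb6, a small heat shock protein that is phosphorylated when smooth muscle relaxes, differed by -0.20 ± 0.13 (SE), with overlap.

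Genes of dense bodies, intermediate filaments and membrane attachments were lower in 8 of 10 cases, with a median of -0.31, and held both exceptions of the set. Csrp1, a LIM-domain protein of the actin cytoskeleton, gave 11.26, 10.75 and 11.08 (wild-type) against 10.69, 10.77 and 10.78 (VDR-null), with a difference of -0.29 ± 0.14 (SE). Wild-type replicate 2 lay among the VDR-null arrays. Synpo2, which encodes the actin-bundling protein synaptopodin 2, had the largest difference here. It gave 8.78, 8.46 and 8.81 (wild-type) against 8.40, 8.19 and 8.20 (VDR-null), without overlap, a difference of -0.42 ± 0.12 (SE). Des, which encodes the intermediate filament protein desmin, read 11.11, 10.56 and 11.07 in wild-type, while the VDR-null arrays were close together at 10.56, 10.57 and 10.60. Wild-type replicate 2 was the lowest of the 6 arrays in Des, and the difference was -0.34 ± 0.16 (SE).

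The other attachment genes with a lower mean were Flna (filamin A, an actin cross-linker) at -0.41, Pdlim3 at -0.37 and Pdlim7 at -0.12 (PDZ and LIM domain proteins that bind alpha-actinin or tropomyosin), Pgm5 (aciculin, of adherens-type junctions) at -0.34 and Synm (the intermediate filament protein synemin) at -0.29. The groups overlapped in each of these 5 genes.

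Ldb3 and Itga8 had a higher mean in VDR-null duodenum, and both varied more than the rest. Ldb3 encodes a Z-band protein of the PDZ and LIM family (cypher or ZASP) and is best known from striated muscle. Its promoter window, on the minus strand, holds an exact CArG box at the stretch chr14:34588687-34588747, inside the gene's RefSeq span chr14:34526699-34590314, and it is shown because the gene did not share the direction of Acta2 and Myl9.
Ldb3: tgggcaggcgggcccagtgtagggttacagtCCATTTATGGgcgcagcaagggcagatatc

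Ldb3 gave 6.84, 7.47 and 7.24 (wild-type) against 8.30, 7.41 and 6.88 (VDR-null), with wild-type replicate 1 the lowest and VDR-null replicate 1 the highest array. Its difference of 0.35 ± 0.35 (SE), with a 95% interval from -0.49 to 1.19 and an adjusted p of 0.740 in limma, was no larger than its error, and it was -0.037 without VDR-null replicate 1. The same arrays were the ends of the brush border genes, as given below. Itga8, the alpha8 subunit of an integrin of mesenchymal cells, gave 6.82, 7.17 and 6.21 (wild-type) against 6.63, 7.33 and 6.43 (VDR-null). Replicate 2 was the highest array of each genotype, and the difference was 0.06 ± 0.31 (SE).

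Myocd encodes myocardin, the SRF coactivator of smooth and cardiac muscle. It gave 7.35, 7.11 and 7.39 (wild-type) against 6.97, 7.11 and 6.98 (VDR-null). VDR-null replicate 2 stood just above wild-type replicate 2, so the groups overlapped, and the difference was -0.26 ± 0.11 (SE; 95% confidence interval -0.52 to -0.01). Its partner Srf, which is not of the set, differed by -0.10 ± 0.09 (SE), and the myocardin-related coactivators Mrtfa and Mrtfb by -0.01 and -0.15.

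Genes of excitation, calcium handling and relaxation were lower in 8 of 8 cases, with a median of -0.27. Kcnmb1, the smooth muscle beta1 subunit of the large-conductance calcium-activated potassium channel, had the largest difference of all 33 genes. It gave 8.40, 8.03 and 8.18 (wild-type) against 7.68, 7.88 and 7.58 (VDR-null), and every VDR-null array lay below every wild-type array. The difference was -0.49 ± 0.13 (SE), or 1.40-fold, with a 95% interval from -0.80 to -0.18 and an adjusted p of 0.683 in limma. Kcnma1, the pore-forming subunit of the same channel, gave 7.84, 7.19 and 7.87 (wild-type) against 7.15, 7.23 and 7.16 (VDR-null). Wild-type replicate 2 was within the VDR-null range, and the difference was -0.45 ± 0.19 (SE). Another probe set of Kcnma1 behaved otherwise and is given with the closing observations; the mean of both sets differed by 0.69.

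Pde5a encodes the phosphodiesterase that breaks down cyclic GMP. It gave 10.06, 9.82 and 10.06 (wild-type) against 9.80, 9.74 and 9.81 (VDR-null), a small step of -0.19 ± 0.10 (SE) without overlap. Chrm2 and Chrm3 are the muscarinic receptors through which acetylcholine excites intestinal muscle. Chrm2 gave 8.14, 7.56 and 7.99 (wild-type) against 7.97, 7.44 and 7.39 (VDR-null), with a difference of -0.29 ± 0.21 (SE). Chrm3 differed by -0.20 ± 0.21 (SE), and by 0.0099 without wild-type replicate 1, its highest array. Cacna1c, the pore of the L-type calcium channel, differed by -0.25, Jph2, which ties the calcium store to the surface membrane, by -0.31, and Ryr2, the store's ryanodine receptor, by -0.23. The groups overlapped in each of these 3 genes and in both receptors.

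The array order behind these differences was shared by most of the set. In 30 of 33 genes wild-type replicates 1 and 3 were both above all 3 VDR-null arrays, which held for 18.6% of all genes tested. Wild-type replicate 2 lay within the range of the VDR-null arrays in 18 of the 33 genes (54.5%), above it in 10 (30.3%) and below it in 5 (15.2%), where the shares of all genes tested were 64.8%, 18% and 17.2%. Its place within that range was thus not more frequent in the set than among all genes. Expressed as the mean deviation of the 33 genes from their own means, the arrays stood at 0.26, -0.10 and 0.28 in wild-type, and at -0.09, -0.15 and -0.20 in VDR-null duodenum. The SD of these deviations was 0.22 over the 3 wild-type arrays and 0.06 over the 3 VDR-null arrays. Wild-type replicate 2 was thus inside the band of the VDR-null arrays on this measure, and the wild-type group carried most of the spread.

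**Figure D3:**
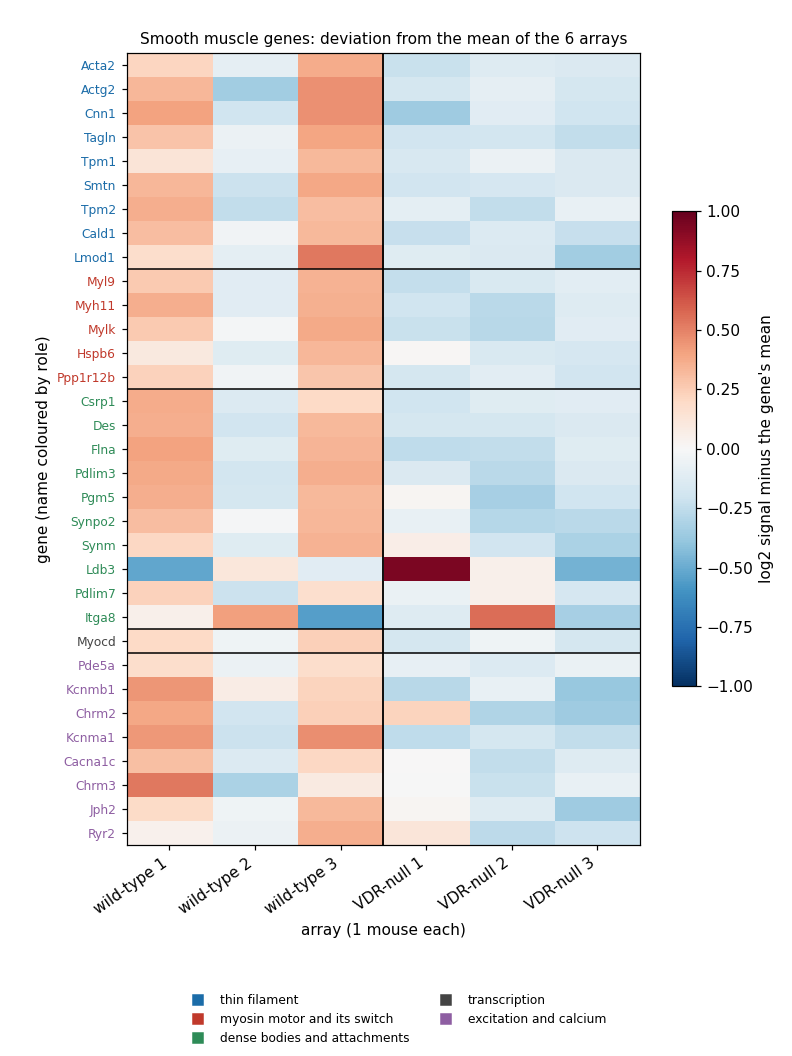
Deviation of each gene (rows, grouped by role) from its own mean over the 6 arrays (columns), in log2 units, red above and blue below. The columns of wild-type replicates 1 and 3 are red in nearly every row, wild-type replicate 2 resembles the 3 VDR-null columns, and Ldb3 and Itga8 break the pattern.

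Single arrays set the size of the difference but not its sign in most genes. The median over the 33 genes was -0.26 without wild-type replicate 1, -0.24 without wild-type replicate 3 and -0.47 without wild-type replicate 2. In these fits 5, 3 and 28 of the 33 genes were lower at an unadjusted p under 0.05 in limma, against 1.24%, 1.29% and 5.15% of all genes tested. Without VDR-null replicate 1, 2 or 3 the number was 8, 6 or 7, against 1.96%, 1.67% or 4.9% of all genes. Leaving out any VDR-null array kept the median between -0.33 and -0.31. No gene of the set had an adjusted p under 0.05 in any of these fits.

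**Figure D4:**
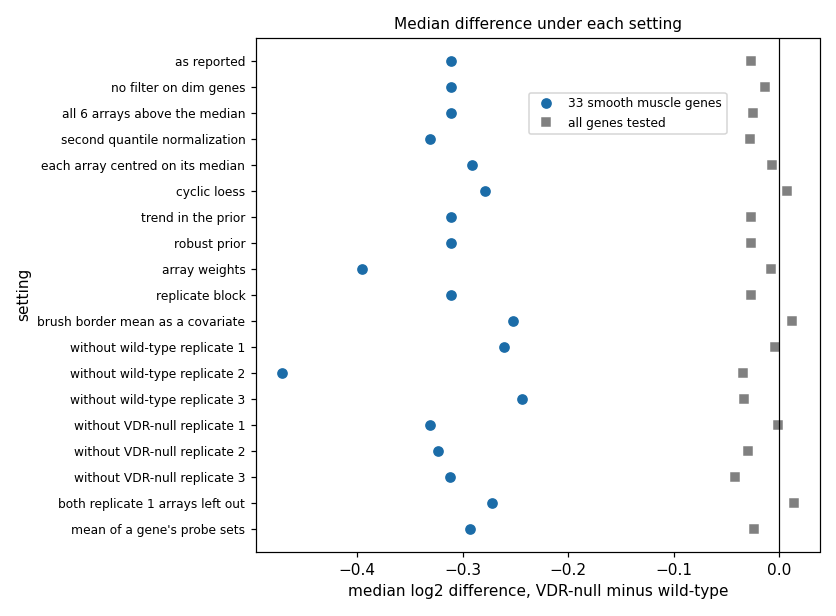
Median log2 difference between VDR-null and wild-type duodenum (horizontal axis) over the 33 smooth muscle genes (circles) and over all genes tested (squares) under each processing setting (vertical axis). The circles lie between -0.47 and -0.24 and the squares between -0.04 and 0.01.

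Other genes of the contractile pathway were lower in 19 of 25 tested cases, with a median of -0.19. None passed an adjusted p of 0.05, and 6 were lower and 0 higher at an unadjusted p under 0.05 in limma, against 3.03% and 2.2% of all genes tested. They include 3 genes of nitric oxide and cyclic GMP signalling, namely the soluble guanylate cyclase subunits Gucy1b1 (-0.32 ± 0.10, SE) and Gucy1a1 (-0.35 ± 0.12) and the cyclic GMP-dependent kinase Prkg1 (-0.51 ± 0.17). The others were the myosin phosphatase subunit Ppp1r12a (-0.30) and its inhibitor Ppp1r14a (-0.29), and the calcium channel subunit Cacna2d1 (-0.34). The groups did not overlap in these 6 genes, 6 of 25 against 6.22% of all genes tested. Rhoa and Rock1, of the general calcium-sensitising pathway, differed by -0.02 and -0.07.

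Genes of actin adhesion and the dystrophin complex, which bind the filaments to the membrane, were lower in 23 of 27 cases, with a median of -0.19 and 5 lower at an unadjusted p under 0.05, where the share of all genes was 3.03%. The integrin subunits Itga7 (-0.23 ± 0.08, SE) and Itga1 (-0.32 ± 0.11) had the smallest p-values. Among SRF cofactors and muscle transcription factors 11 of 15 genes were lower, with a median of -0.11, and Foxf2, a forkhead factor of gut mesenchyme, differed by -0.30 ± 0.11 and Nfatc4 by -0.23. Genes of the non-muscle actin and myosin machinery, found in most cells, were lower in only 4 of 12 cases, with a median of 0.03. Actb differed by 0.10 and Actg1 by -0.11, and the smallest p-values were those of Myl12b (0.14 ± 0.09) and Myh14 (0.32 ± 0.24).

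The negative direction was not confined to smooth muscle. Endothelial genes were lower in 12 of 12 cases, with a median of -0.32, close to that of the smooth muscle genes, with Tek at -0.49 ± 0.10 (SE), Flt1 at -0.49 ± 0.12, Pecam1 at -0.31, Cdh5 at -0.38 and Kdr at -0.37. Genes of pericytes and vascular smooth muscle were lower in 9 of 10 cases, with a median of -0.25. Rgs5 (-0.47 ± 0.15) and the potassium channel subunits Abcc9 (-0.50 ± 0.14) and Kcnj8 (-0.25), and the proteoglycan Cspg4 (-0.14), did not overlap between the genotypes, 4 of 10 genes against 6.22% of all genes tested. Notch3 overlapped, at -0.28. Fibroblast and matrix genes were lower in 14 of 16 cases, with a median of -0.20, with the smallest p-values in Dpt (-0.51 ± 0.19) and Col1a2 (-0.26), while Pdgfra, Dcn, Lum, Col1a1 and Col3a1 differed by -0.27, -0.26, -0.39, -0.13 and -0.06. Similar medians did not mean the same array order. The mean deviation of the endothelial genes was 0.39, 0.01 and 0.06 (wild-type) against -0.24, -0.21 and -0.003 (VDR-null). For fibroblast and matrix genes it was 0.29, 0.04 and -0.04 against -0.28, -0.02 and 0.01. For pericytes and vascular smooth muscle it was 0.22, 0.001 and 0.12 against -0.14, -0.13 and -0.07. Whether smooth muscle genes differ more than these lists was not tested.

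Of 5 genes of the interstitial cells of Cajal, the pacemaker cells of gut muscle, 4 were lower, with a median of -0.29. The chloride channel Ano1 differed by -0.41 ± 0.10 (SE) and Etv1 by -0.29 ± 0.11, both without overlap. Kit, the receptor that defines these cells, differed by 0.01 ± 0.14. Without overlap, 3 of the 5 genes were lower, against 6.22% of all genes tested. Enteric neuron genes were lower in 12 of 13 cases, with a median of -0.17, with Penk at -0.37, Cartpt at -0.23, Prph at -0.19, Uchl1 at -0.17 and Snap25 at -0.11, and Elavl4 lay below the median signal on all arrays. Enteric glial genes were lower in 4 of 5 cases, with a median of -0.15, Sox10 differed by -0.15, and S100b lay below the median signal on all arrays. In the lists of skeletal muscle, with 5 tested genes, and of cardiac muscle, with 4, the median was -0.01 and 0.07. No gene of any of these lists passed an adjusted p of 0.05.

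Markers of the epithelium moved between the arrays too. Brush border genes of enterocytes had a higher mean in VDR-null duodenum in 21 of 21 tested cases, with a median of 0.66. Their mean deviation was -1.45, 0.18 and 0.03 (wild-type) against 0.95, 0.41 and -0.12 (VDR-null), and their mean level ran from 9.27 to 10.89 in wild-type and from 10.60 to 11.67 in VDR-null duodenum. Lct, which encodes lactase, read 5.74 on wild-type replicate 1 against 9.49 to 11.69 on the others. Wild-type replicates 1 and 3 thus had nearly the same level of smooth muscle genes and very different levels of brush border genes. With the brush border mean of each array as a covariate the smooth muscle genes were lower in 31 of 33 cases with a median of -0.25, of which 2 had an unadjusted p under 0.05 in limma. In that fit 1.73% of all genes were lower at that p, and the median of all genes was 0.012. Without both replicate 1 arrays 32 of 33 were lower, with a median of -0.27.

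**Figure D5:**
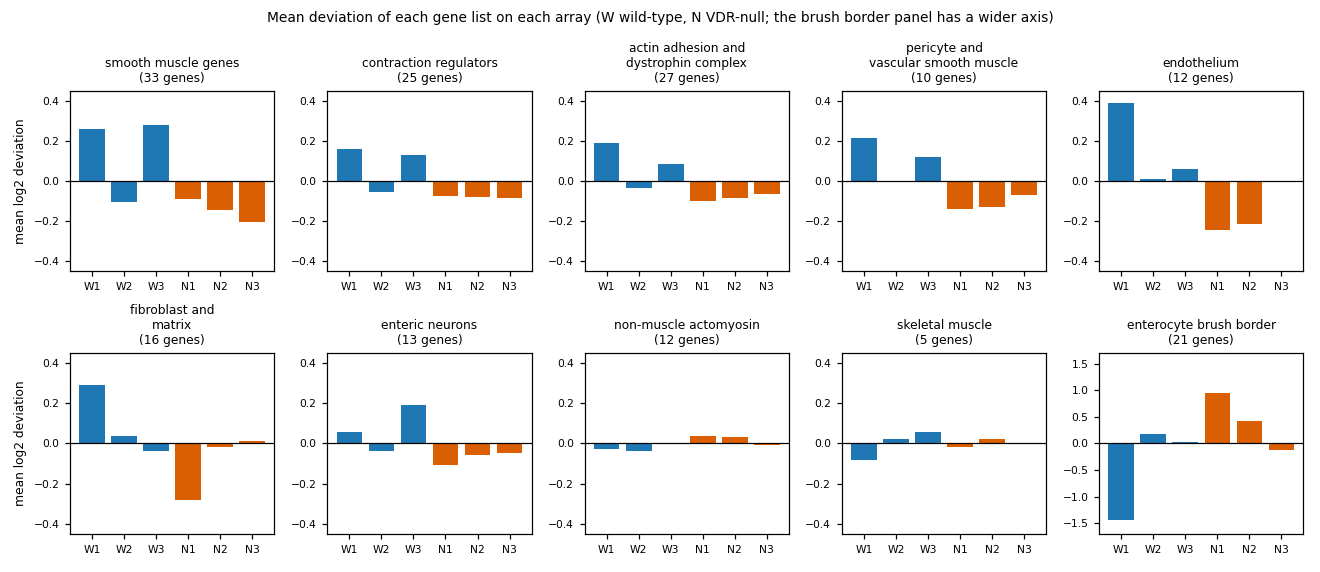
Mean log2 deviation (vertical axes) of the genes of each list from their own means on each of the 6 arrays (W wild-type, N VDR-null, numbered by replicate); the brush border panel has a wider axis. Smooth muscle genes stand at 0.26 and 0.28 on wild-type replicates 1 and 3, while brush border genes stand at -1.45 and 0.03 on the same arrays.

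Pancreatic acinar transcripts were highest on VDR-null replicate 3, with Cpa1 at 10.11 there and at 5.55 to 6.78 elsewhere and Ctrb1 at 11.06 against 6.19 to 8.57. Prss2 read 6.35 on this array and 3.95 to 4.60 on the others. This was also the array with the lowest mean of the smooth muscle genes. Without it the median of these genes was -0.31. Genes of crypt cell division were lower in 9 of 9 cases, with a median of -0.26, with Tyms at -0.34 and Mki67 at -0.42. In mesothelium 2 of 5 genes were tested, Wt1 at -0.18 and Upk1b at 0.10, and the defining markers Msln and Lrrn4 lay below the median signal on all arrays and Upk3b on 5 of 6. The part of these other cell types in the smooth muscle result was not tested.

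The RefSeq promoter table (GRCm38.p6) held windows for 29 of the 33 genes, each from 250 bases before to 50 bases after a transcript start; Actg2, Tagln, Myh11 and Myocd were not among them. The windows were searched for the CArG box, read as CC, then 6 letters that are each A or T, then GG. This motif is its own reverse complement in form, so a search of 1 strand covers both, and no other motif was searched. An exact match stood in the windows of 2 of 29 genes, Myl9 and Ldb3, or 6.9%, against 1.81% of all genes in the table. With 1 letter of the middle 6 allowed to be C or G, 8 of 29 genes had a match, or 27.6%, against 11.3% of all genes. By windows rather than genes these were 11 of 37 against 9.98% of all windows of the same length. The further genes were Jph2, Cacna1c, Hspb6, Synm and Pdlim3, besides Acta2. The median difference between the genotypes was -0.30 over the 8 genes with a match and -0.33 over the 21 without one. A match is only a run of letters in this window and not a shown binding site.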

How the data were processed

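The authors hybridised duodenal RNA to Affymetrix Mouse Gene 2.0 ST arrays and deposited log2 signals made with RMA (background correction, quantile normalization, summary per probe set) with the Expression Console software of Affymetrix (per the submitters' processing notes, without a version). The base follows from RMA and the range of values, 1.99 to 13.8. Of 41345 probe sets 23521 carry 1 gene symbol in the platform annotation. Genes entered the test if 3 or more of 6 arrays exceeded the median of all values, 5.17. The genotype difference was fitted by lmFit and eBayes of limma 3.58.1 (R 4.3.3) as a two-sided test without covariates; p-values were adjusted by Benjamini-Hochberg across the 13174 genes at a threshold of 0.05, with the moderated standard error and 95% confidence intervals. The procedure was also run on simulated data. There the noise was independent between genes, which vary together here, and the added changes were larger than the median difference of the set. The smooth muscle genes and the 16 comparison lists were chosen with earlier results of these data known, so they received no test of their own. Every smooth muscle gene is named. Values on each array are given for the highest mean and the largest differences in each role, and for further genes chosen after their values were seen. Of other lists up to 2 genes with the smallest p, defining markers, and some genes chosen after their values were seen are named. The number of arrays limits the precision. Each p-value sets a difference against only the spread between these samples, pooled over both genotypes and moderated over all genes tested. Alternatives covered filters, scaling, priors, weights, the replicate block, a brush border covariate, left-out arrays and the mean of probe sets.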

Additional observations from a re-analysis of the deposited data

Results flagged for a closer look

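A further probe set of Kcnma1, which was not used because its mean is the lower of that gene's pair, gave a signal on 1 array alone. It read 10.22 on VDR-null replicate 1 and between 3.96 and 4.69 on the other 5 arrays. The step of 5.52 from the highest to the next array was the largest of all 41345 probe sets, ahead of 3.96 for the next. A step over 3 occurred in 11 probe sets, 8 of them on VDR-null replicate 3. The used probe set of Kcnma1 read 7.15 on VDR-null replicate 1. The position of the probes of either set is unknown here.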

How the results depend on the processing

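No setting brought a smooth muscle gene, or any of the genes tested, past an adjusted p of 0.05 or of 0.10 in limma. Over the 18 alternatives the 33 genes gave 594 values, of which 586 kept their direction. The 8 that turned were Ldb3 at -0.15 with the brush border covariate, -0.21 without both replicate 1 arrays and -0.037 without VDR-null replicate 1, Itga8 at -0.20 without wild-type replicate 3 and, likewise, without VDR-null replicate 2, Chrm3 at 0.045 with that covariate and 0.0099 without wild-type replicate 1, and Kcnma1 at 0.69 with its probe sets averaged. The number of genes higher in VDR-null was 2 as reported and 1 without both replicate 1 arrays. With each array left out in turn, this number ran from 1 to 3, the median difference from -0.47 to -0.24, Ldb3 from -0.037 to 0.67, Itga8 from -0.20 to 0.28 and Chrm3 from -0.41 to 0.0099. Deviations of same-numbered arrays from their group means correlated at -0.62, 0.19 and -0.26. Those of differently numbered arrays correlated at -0.602 to 0.685. Whether shared replicate numbers pair the samples cannot be read from these values, since the deviations of each group sum to 0. The replicate block left the median at -0.31 and called 0 genes, with 9 of the 33, and 1.47% of all genes, lower at an unadjusted p under 0.05 in limma. Scaling by cyclic loess gave a median of -0.28 and centring on array medians -0.29, each with 8 of the 33 genes lower at an unadjusted p under 0.05 in limma (2.26% and 2.12% of all genes). Array weights gave -0.40 with 28 such genes and 10.9% of all genes, against 13 and 3.03% as reported. Dim signals can understate differences, which was not tested here. With 3 arrays per genotype 13 of the 33 intervals lay wholly below 0. This is the same criterion as lower at an unadjusted p under 0.05 in limma, met by 3.03% of all genes tested.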

Other observations

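Genes outside the set whose 6 array values, centred on their own means, lay nearest to the mean profile of the 33 genes were listed as a description, by root mean square difference in log2 units. The 10 nearest were Crip2, Mcam, Ppp1r12a, Tppp3, Marveld1, Nfatc4, Cap2, Zfp783, Ank2 and Arhgap44, at 0.03 to 0.05. The mean profile itself differed by -0.29 between the genotypes. Genes this near to it must differ by about as much, so the differences given next follow from the choice. Crip2, a LIM-domain protein, was the nearest and differed by -0.28 between the genotypes. Mcam, a cell adhesion molecule of pericytes and vascular smooth muscle, differed by -0.29 and Ppp1r12a, of the myosin phosphatase, by -0.30. Among the 33 genes themselves Ppp1r12b was nearest to the mean profile at 0.05, the median distance was 0.09, and Itga8 and Ldb3 were farthest at 0.50 and 0.58. The median distance of all other named genes tested was 0.22. The profile is the mean of the 33 genes, so their own nearness to it is partly built in. A gene with the same signal on all arrays would lie at 0.195.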
